A study of Arabidopsis thaliana with 18 samples.

Results

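Expansin genes were examined for peaks of BRIP2-GFP and BRIP1-GFP in *brm-1* seedlings of *Arabidopsis thaliana*. Members were the protein-coding genes named as expansins by their RefSeq symbol (*EXPA*, *EXPB*, *EXLA*, *EXLB* or *EXP* and a number), or whose product or note mentions expansins. This gave 37 of 27444 nuclear protein-coding genes. Of these, 35 were named by symbol: 25 alpha-expansins (*EXPA*, with *EXP3* and *EXP26*), 6 beta-expansins (*EXPB*), 3 genes of the expansin-like A group (*EXLA*) and 1 of the expansin-like B group (*EXLB*). The other 2, *PNP-A* and AT4G30380, encode plant natriuretic peptides and came in only because their notes call these peptides distant relatives of expansins. Counts are therefore also given without them. A further 2 loci annotated as pseudogenes were left out.

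Expansins are secreted proteins that loosen the plant cell wall without cutting its polymers. They act best at the acidic pH that plasma membrane proton pumps create in the wall, and they let cellulose microfibrils slip so that a cell under turgor can enlarge. Alpha-expansins carry most of the known wall-loosening activity in *Arabidopsis*, beta-expansins include the pollen allergens of grasses, and the expansin-like proteins have the same domains but no established wall-loosening activity. BRIP1 and BRIP2 are homologous subunits of SWI/SNF chromatin remodelling complexes, which use ATP to move or evict nucleosomes, and BRM is one ATPase of these complexes.

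The series holds 18 samples, of which 4 were analysed here: immunoprecipitates of BRIP2-GFP in *brm-1* (2 replicates) and of BRIP1-GFP in *brm-1* (2 replicates), all from 14-day-old whole seedlings and an antibody to GFP. All 4 libraries carry *brm-1*, a mutant allele of *BRM*, so no value here measures an effect of BRM. The promoters that drive the fusions, and whether the untagged BRIP1 and BRIP2 were present, are not given in the sources used here. No GFP-free library precipitated with the same antibody is among the 18 samples, so signal that needs no fusion cannot be told apart from binding. The antibody field of BRIP1 replicate 2 reads none, against its title, which was followed. In whole seedlings, binding in more cells and more binding per cell cannot be told apart.

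A gene was counted as having a peak where the summit of a called peak lay from 3000 bp upstream of its transcription start site (TSS) to 1000 bp past its 3′ end, and genes and sites with a called peak are called bound. The deposited lists held 7877 and 6288 nuclear peaks for BRIP2, and 3637 and 5343 for BRIP1. The size of a peak is given as the fold over the local control at its summit, a ratio written by the authors' peak caller. Solving for the fragments behind that ratio gave a background of 29.7 and 23.2 fragments in the BRIP2 libraries, and 31.5 and 41.2 in the BRIP1 libraries. The lowest fold called at that background was 1.63 and 1.73 for BRIP2, and 1.69 and 1.59 for BRIP1, so weaker enrichment was not detectable at this depth.

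A selection of the bound windows is shown first. Each is 101 bases of the TAIR10 genome (RefSeq) centred on the median summit of the 4 libraries. The bases are read 5′ to 3′ on the strand of the gene. The windows shown are the upstream sites of alpha-expansins, *EXPB3* and *EXLA2*. Left out are *EXPA5*, *EXPA9*, *EXLA1*, *PNP-A*, AT4G30380 and the site of *EXPA6* past its 3′ end. Capitals mark the motifs searched for: CANNTG (E-box), CACGTG (G-box, a form of the E-box), CGTGTG (brassinosteroid response element, searched also in its form CGTGCG), GTGGNCCC (TCP, searched also in its form GGNCCCAC), TGTCTC (auxin response element), TTGACC (W-box, searched also in its form TTGACT), the purine run GAGAGA (here called the GAGA repeat) and AAACCCTA (telo-box), each on either strand.
EXPA1, chr1:26141160-26141260, plus strand: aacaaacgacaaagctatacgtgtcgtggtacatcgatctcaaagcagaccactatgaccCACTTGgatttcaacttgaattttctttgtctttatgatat
EXPA15, chr2:919245-919345, minus strand: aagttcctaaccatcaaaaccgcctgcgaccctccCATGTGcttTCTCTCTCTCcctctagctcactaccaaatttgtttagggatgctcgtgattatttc
EXPA6, chr2:12433855-12433955, minus strand: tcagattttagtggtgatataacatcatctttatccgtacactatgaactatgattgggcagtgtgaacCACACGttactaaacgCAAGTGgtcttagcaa
EXPA4, chr2:16546946-16547046, minus strand: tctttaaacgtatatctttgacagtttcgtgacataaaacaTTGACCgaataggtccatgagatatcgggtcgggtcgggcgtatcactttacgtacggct
EXPA10, chr1:9256945-9257045, plus strand: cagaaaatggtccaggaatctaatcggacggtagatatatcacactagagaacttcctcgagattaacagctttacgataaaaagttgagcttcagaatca
EXPB3, chr4:14002159-14002259, minus strand: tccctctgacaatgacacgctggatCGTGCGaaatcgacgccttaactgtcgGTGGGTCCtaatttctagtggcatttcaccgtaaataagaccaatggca
EXLA2, chr4:17982112-17982212, minus strand: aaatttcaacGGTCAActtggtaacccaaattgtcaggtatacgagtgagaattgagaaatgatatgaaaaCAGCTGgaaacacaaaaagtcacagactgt
These windows differed in the motifs they hold: *EXPA1* had an E-box alone, and *EXPA6*, *EXPA15* and *EXLA2* had an E-box beside another motif. *EXPA6* and *EXPB3* had a brassinosteroid response element, *EXPB3* also a TCP motif, *EXPA4* and *EXLA2* a W-box, and *EXPA15* a GAGA repeat. *EXPA10* had none of those searched. Among the windows left out, those of *EXLA1*, *PNP-A*, AT4G30380 and the *EXPA6* site past the 3′ end also had none. In windows of 101 bases, 5 of the 13 expansin sites called in all 4 libraries had an E-box, against 43.9% of all such sites.

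A minority of the expansin genes had peaks of both proteins, and they were nearly the same genes in every library. In the BRIP2 libraries, 14 and 14 of the 37 genes had a peak (37.8% and 37.8%), where 36.1% and 29.0% of all protein-coding genes did. In the BRIP1 libraries, 12 and 13 of the 37 had one (32.4% and 35.1%), where 16.8% and 24.1% of all genes did. Between these uncut lists of very different length, the share of expansins thus moved little, while the share of all genes followed the length of the list. Cutting the lists to equal length lowered the expansin counts as well. Both BRIP2 libraries then had a peak at 9 of the 37 genes, against 13 uncut (14.3% and 26.7% of all genes). Both BRIP1 libraries then had one at 10, against 12 uncut (13.6% and 15.8% of all genes).

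Peaks in all 4 libraries were found at 12 of the 37 genes (32.4%), against 14.9% of all protein-coding genes. Both BRIP2 libraries had a peak at 13 (35.1%, against 26.7% of all genes) and both BRIP1 libraries at 12 (32.4%, against 15.8%). At least 1 library had a peak at 15 genes (40.5%, against 39.6%), which is close to the background. Without the 2 natriuretic peptide genes, 10 of 35 expansins had a peak in all 4 libraries. These shares are descriptions with no test, since the gene set was chosen with earlier results of these data known.

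**Figure D1:**
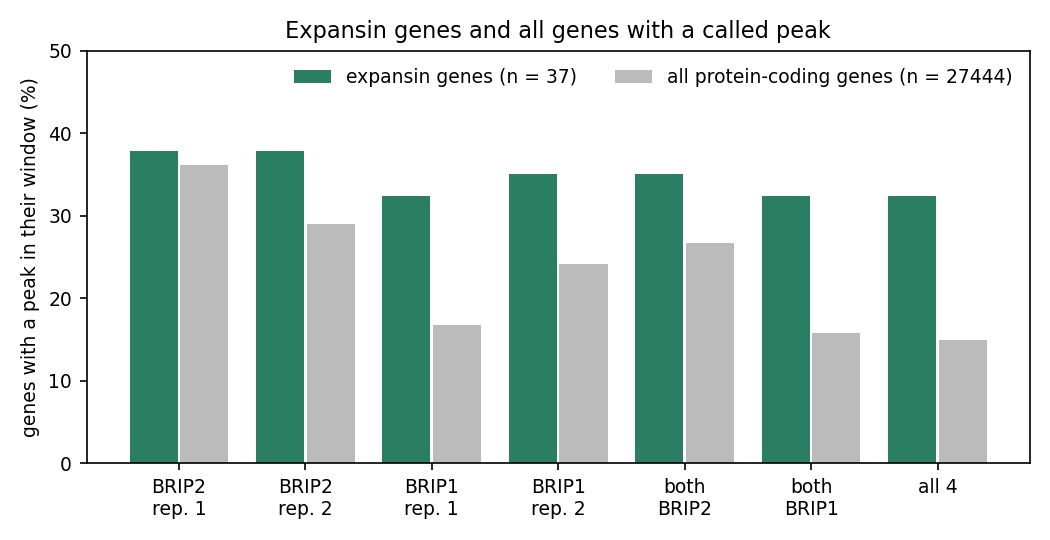
Percentage of genes with a peak in their window, for each library, for both libraries of a protein and for all 4 (at least 1 library is not drawn), with the 37 expansin genes in green and all 27444 protein-coding genes in grey. The expansin bars drawn stay between 32.4% and 37.8%, while those of all genes span 14.9% to 36.1%.

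Of the 25 alpha-expansins, 10 had a peak in at least 1 library (40.0%, against 39.6% of all genes), which is close to the background. They made up 66.7% of the genes with any peak and 67.6% of the family. For peaks in all 4 libraries, the share of all genes was 14.9%. Of 25, 7 had a peak in all 4 libraries (*EXPA1*, *EXPA4*, *EXPA5*, *EXPA6*, *EXPA9*, *EXPA10* and *EXPA15*), 3 in 1 to 3 libraries (*EXPA2*, *EXPA8* and *EXPA16*) and 15 in none. Of the 6 beta-expansins, only *EXPB3* had a peak in any library, and it had one in all 4. Of the 3 *EXLA* genes, *EXLA1* and *EXLA2* had a peak in all 4 libraries and *EXLA3* in none. *EXLB1*, the single gene of its group, had no peak, and both natriuretic peptide genes had peaks in all 4 libraries.

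Peaks that overlapped by at least 1 bp between libraries were joined into sites. The expansin windows held 27 such sites, of 8727 in the genome. Of the 27, 13 were called in all 4 libraries (48.1%, against 34.2% of all sites), 3 in 3 libraries, 4 in 2 and 7 in 1. *EXPA6* had 2 of the 13 and each of the other 11 genes 1.

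*EXPA1*, an alpha-expansin of guard cells and growing organs, had a single site, on chromosome 1 from 26140594 to 26141784, with summits 498 to 564 bp upstream of the TSS in intergenic sequence. The fold there was 3.10 and 3.18 in the BRIP2 libraries (3.14 ± 0.0578, SD, n = 2) and 2.35 and 2.17 in the BRIP1 libraries (2.26 ± 0.127, SD, n = 2). Both BRIP2 values lay above both BRIP1 values, by 0.47 on the log2 scale. The site fell in the window of no other protein-coding gene.

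*EXPA15* had its site on chromosome 2 from 918854 to 919530, with summits within 43 bp of each other, 590 to 633 bp upstream of the TSS. The fold was 3.13 and 3.26 for BRIP2, and 3.05 and 2.61 for BRIP1. The proteins did not overlap there, but the lowest BRIP2 and the highest BRIP1 value were close.

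*EXPA4* was bound farther upstream, on chromosome 2 from 16546664 to 16547258, with summits 1201 to 1288 bp before the TSS. The fold was 3.10 and 3.75 for BRIP2, and 2.83 and 2.96 for BRIP1. The summits fell in exons of a pair of overlapping long non-coding RNA genes on opposite strands, AT2G09060 and AT2G09065, and *EXPA4* was the nearest protein-coding gene. BRIP2 replicate 2 and BRIP1 replicate 2 shared a second site 2436 and 2431 bp upstream, with a fold of 2.39 and 2.09, and BRIP2 replicate 1 alone had a peak of fold 2.41 in the coding sequence.

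*EXPA6* carried the most sites of the family, 4 in all. At its start, on chromosome 2 from 12433479 to 12434111, summits lay 64 to 202 bp upstream of the TSS, with a fold of 2.57 and 2.62 for BRIP2, and 2.40 and 2.47 for BRIP1. The proteins were separated by 0.09 on the log2 scale, the smallest difference among the sites without overlap. A site in an intron, 1477 to 1500 bp past the TSS, was called in 3 libraries, with a fold of 2.73 and 2.85 for BRIP2, and 2.07 for BRIP1 replicate 2. BRIP2 replicate 2 and BRIP1 replicate 2 also shared a weaker site 1953 and 1895 bp upstream, at a fold of 2.15 and 2.28.

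The remaining *EXPA6* site lay at the edge of the window, 3421 to 3480 bp past the TSS in the exon of the long non-coding RNA gene AT2G08305. The nearest TSS of a protein-coding gene was that of AT2G28940. The fold at this site was 2.83 and 2.93 for BRIP2, and 2.31 and 2.45 for BRIP1. In 3 libraries the summit was 2 to 37 bp inside the window, and that of BRIP1 replicate 2 was 22 bp outside. Just outside other windows, *EXPA15* had summits of fold 2.80 and 2.56 in the BRIP2 libraries, 62 and 64 bp past the end, and of 2.63 in BRIP1 replicate 2, 18 bp past it. All 4 libraries had a summit 145 to 192 bp past the *EXPB3* window, at folds of 2.46 to 3.19. *EXPA1* had one in BRIP2 replicate 1, 154 bp past its window (fold 2.80), and *EXPB4*, which has no peak by the rule, had one of fold 1.86 in BRIP2 replicate 1, 42 bp past its own.

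*EXPA10*, an alpha-expansin of leaf and pedicel growth, had the only site of the 13 with a negative log2 difference, BRIP2 minus BRIP1. The difference was positive at 12 of the 13 (92.3%), against 86.1% of all 2982 sites called in all 4 libraries. The *EXPA10* site on chromosome 1, from 9256683 to 9258793, was the broadest of the family. The best summits lay 2387 to 2501 bp upstream of the TSS. The fold was 2.51 and 2.81 for BRIP2, and 2.74 and 3.11 for BRIP1. The values of the proteins overlapped, with BRIP1 the higher on average by 0.14 on the log2 scale (BRIP2 minus BRIP1, -0.14). Within the same site, BRIP2 replicate 2 and BRIP1 replicate 1 had a further summit 849 and 814 bp upstream, with a fold of 2.06 and 2.03, and BRIP2 replicate 1 had one 1623 bp upstream with a fold of 2.38.

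*EXPA9* and *EXPA5* were bound inside the gene. At *EXPA9*, on chromosome 5 from 463545 to 464365, summits lay in an intron 1079 to 1120 bp past the TSS, within 41 bp of each other, the tightest agreement of the 13 sites. The fold was 3.03 and 2.56 for BRIP2, and 2.68 and 2.32 for BRIP1, which overlap. At *EXPA5*, which is linked to growth responses to brassinosteroid, summits were spread over 600 bp, 1467 to 2067 bp past the TSS. The fold was 2.36 and 1.94 for BRIP2, and 1.79 and 1.85 for BRIP1. Within their lists these folds stood at percentiles 37.4 and 4.33 for BRIP2, and 1.75 and 8.14 for BRIP1, and the summit of BRIP2 replicate 2 was nearer to the TSS of *MYB110* than to that of *EXPA5*. At that summit 46 fragments (95% Poisson interval 33.7 to 61.4, counting error only) stood over a control of 23.2.

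*EXPB3* was bound at its start, on chromosome 4 from 14001767 to 14002475, with summits 65 to 113 bp upstream of the TSS. The fold was 3.32 and 2.81 for BRIP2 (3.06 ± 0.366, SD, n = 2), and 2.12 and 2.59 for BRIP1 (2.35 ± 0.326, SD, n = 2). The replicates of each protein differed here more than at most sites, yet the proteins did not overlap. A second site 2217 to 2384 bp upstream, nearer to AT4G28260, was called in 3 libraries at a fold of 2.34 and 1.98 for BRIP2, and 1.83 for BRIP1 replicate 2.

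*EXLA1* was also bound at its start, on chromosome 3 from 16895863 to 16896455, with summits 33 to 101 bp upstream of the TSS. The fold was 3.28 and 3.05 for BRIP2, and 2.49 and 2.60 for BRIP1, without overlap. Its neighbour *EXLA3* lay next to it and had no peak by the rule, since the nearest summit, that at *EXLA1*, was 912 bp past its window.

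*EXLA2* had the highest mean fold of the family for each protein, though not the highest value in every library, at a site far from its TSS. The site on chromosome 4 from 17981864 to 17982927 had a fold of 3.62 and 3.80 for BRIP2 (3.71 ± 0.127, SD, n = 2), and 3.05 and 2.87 for BRIP1 (2.96 ± 0.126, SD, n = 2). Its summits lay 2371 to 2435 bp upstream, the nearest TSS was that of *sks9*, and the windows of 4 other protein-coding genes included it. Near the *EXLA2* TSS, only BRIP2 replicate 2 had a peak, 117 bp upstream, at a fold of 1.90.

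The 2 natriuretic peptide genes were bound upstream, at sites nearer to other genes. At AT4G30380 the fold was 3.65 and 3.42 for BRIP2, and 2.40 and 2.32 for BRIP1, 690 to 805 bp upstream and nearest to AT4G30370. The log2 difference of 0.58 was the largest of the 13 sites. At *PNP-A*, a secreted peptide gene linked to defence, the fold was 2.35 and 2.48 for BRIP2, and 1.91 and 1.64 for BRIP1, 1207 to 1451 bp upstream and nearest to AT2G18670. Each gene had a second site near the far end of its window.

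**Figure D2:**
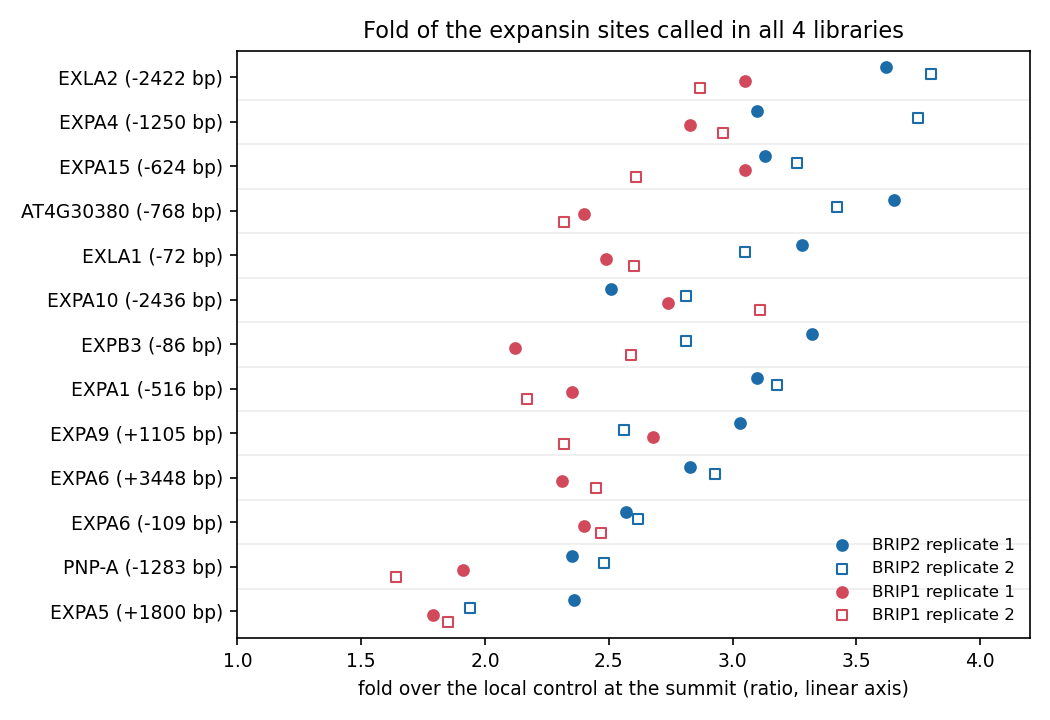
Fold over the local control (linear axis) at the 13 expansin sites called in all 4 libraries, one row per site with the median distance from the TSS, blue for BRIP2 and red for BRIP1, filled circles for replicate 1 and open squares for replicate 2. Blue points lie right of all red points except at EXPA10 and EXPA9.

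Expansin sites were of modest strength among sites called in every library. The median fold of the 13 sites was 3.10 and 2.93 in the BRIP2 libraries, where all 2982 such sites had medians of 3.33 and 3.18. In the BRIP1 libraries it was 2.40 and 2.47, where all sites had 2.68 and 2.85. Ranked by mean log2 fold among the 2982, the 13 sites had a median percentile of 30.7, and the highest, at *EXLA2*, stood at 67.3. The lowest were *EXPA5* at 0.537 and *PNP-A* at 1.24. No expansin gene had a peak of fold 3 or more in all 4 libraries. As only 3.97% of all genes did, a count of 0 in 37 is close to the background.

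BRIP2 folds exceeded BRIP1 folds at most expansin sites, as they did at most sites of the genome. At 11 of the 13 sites both BRIP2 values lay above both BRIP1 values, and this was so at 60.7% of the 2982 sites. At no expansin site did both lie below, where 4.12% of all sites had that order. The median log2 difference, BRIP2 minus BRIP1, was 0.28 over the expansin sites, with a range of -0.14 to 0.58, and 0.22 over all sites. In an exact two-sided permutation test over the libraries of each site, p was 0.333 at those 11 sites, the smallest that 2 against 2 can give, and 0.667 at *EXPA9* and *EXPA10*, so the design cannot pass 0.05 at any site.

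Much of that order was shared by the whole genome and depends on how the libraries are scaled. With each library set to its own median over the 2982 sites, an alternative chosen after seeing the data, BRIP2 lay above BRIP1 without overlap at 3 of the 13 sites (*EXPA1*, *EXLA1* and AT4G30380) and below it at 2 (the upstream site of *EXPA6*, and *EXPA10*), where 22.1% and 26.4% of all sites did. The centred difference was 0.24 at *EXPA1*, 0.08 at *EXLA1* and 0.35 at AT4G30380, and it was -0.14 at *EXPA6* and -0.37 at *EXPA10*. The remaining 8 sites overlapped.

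**Figure D3:**
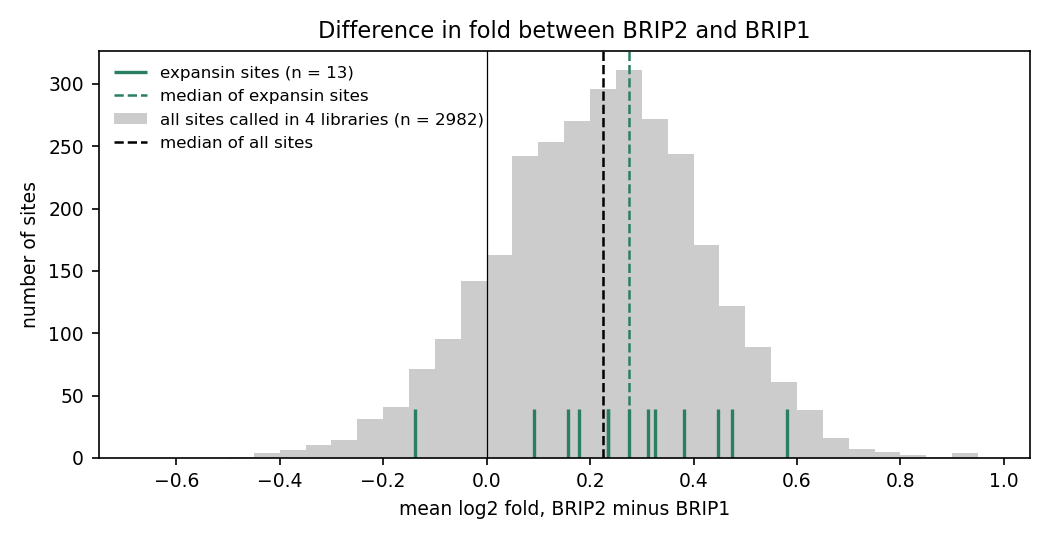
Histogram of the mean log2 fold of BRIP2 minus that of BRIP1 over the 2982 sites called in all 4 libraries, with a green tick for each of the 13 expansin sites and dashed lines for the median of expansin sites (0.28) and of all sites (0.22). The expansin ticks spread over the bulk of the histogram, from -0.14 to 0.58.

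Of the 27 expansin sites, 9 had peaks of 1 protein only (33.3%, against 43.1% of all 8727 sites), 8 of them BRIP2 and 1 BRIP1, and 7 of the 9 were called in a single library. Only 2 had peaks of both BRIP2 libraries and no BRIP1 library (7.41%, against 13.1% of all sites), and none had the reverse (against 0.401%). One of the 2 was at *EXPA8*, 368 and 396 bp upstream of the TSS, with a fold of 2.35 and 2.35. The lowest folds called at background in the BRIP1 libraries were 1.69 and 1.59. The lists hold no BRIP1 value at this site, so weak BRIP1 signal there cannot be told apart from none. BRIP1 replicate 2 had its own *EXPA8* peak elsewhere, 1712 bp upstream, at a fold of 2.36. The other was the far site of *PNP-A*, 2533 and 2647 bp upstream, with a fold of 2.05 and 2.27.

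The 7 peaks called in a single library had folds of 1.79 to 2.41. The highest were those of *EXPA4* in BRIP2 replicate 1 (2.41, percentile 40.6 of its list) and *EXPA8* in BRIP1 replicate 2 (2.36, percentile 44.1), both given above. *EXPA2*, known from germinating seeds, had one in BRIP2 replicate 1, 1900 bp past its TSS and nearer to AT5G05300, with a fold of 1.79. *EXPA16* had one in BRIP2 replicate 2, 1321 bp upstream, with a fold of 2.19. *EXLA1* and *EXPA10* each had one more in BRIP2 replicate 1, past the 3′ end, with a fold of 1.95 and 2.15, and *EXLA2* had its peak of fold 1.90 in BRIP2 replicate 2.

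No peak in any library was found in the windows of 22 genes: *EXP3*, *EXPA7*, *EXPA11*, *EXPA12*, *EXPA13*, *EXPA14*, *EXPA17*, *EXPA18*, *EXPA20*, *EXPA21*, *EXPA22*, *EXPA23*, *EXPA24*, *EXPA25*, *EXP26*, *EXPB1*, *EXPB2*, *EXPB4*, *EXPB5*, *EXPB6*, *EXLA3* and *EXLB1*. Among them are *EXPA7* and *EXPA18*, the expansins of root hairs, and *EXPA17*, which is active over emerging lateral roots. The tandem group *EXPA21*, *EXPA22*, *EXPA23*, *EXP26*, *EXPA25* and *EXPA24* on chromosome 5, from 15726243 to 15740605, was free of peaks as a block, and the closest summit of any library was 12774 bp away. Some of these windows hold repeated sequence, to which short reads may not be assigned. The share of 31-base words found once in the nuclear genome was 41.2% in the window of *EXPB5*, 79.4% in that of *EXPA17* and 75.2 to 97.2% in the tandem group, against 95.5 to 100% in the windows of the 12 genes bound in all libraries. Its part in the result was not tested.

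Expansins with peaks had more space upstream than those without. The distance to the next protein-coding gene upstream had a median of 3648.5 bp for the 12 genes with a peak in all 4 libraries and 1412.5 bp for the 22 without a peak. Over all protein-coding genes it was 943 bp. The share of all genes with a peak in all 4 libraries was 10.8% where that distance was under 1000 bp and 21.7% where it was 3000 bp or more, and of expansins 2 of 11 and 7 of 14 had one. The part of this spacing in the expansin counts was not tested.

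Most of the shared sites lay in front of the genes. Of the 13, 10 had their median summit upstream of the expansin TSS, 6 of them within 1000 bp and 2 beyond 2000 bp, and 3 lay past the TSS. The expansin TSS was the nearest of any protein-coding gene at 9 of the 13, and 7 fell in the window of no other protein-coding gene. These positions were not counted for the sites of other genes, so they are not shown to be particular to expansins. When each summit was given only to its nearest TSS, 8 of the 37 expansins (21.6%) had a peak in all 4 libraries, against 8.75% of all genes. Summits in introns made up 17.4% and 13.0% of the expansin summits of the BRIP2 libraries, and 7.14% and 11.1% of those of the BRIP1 libraries, which are 4, 3, 1 and 2 summits. Over all summits of the same libraries introns held 4.09% and 3.77% for BRIP2, and 4.23% and 4.04% for BRIP1. These few intron summits repeat the same sites: *EXPA9*, *EXPA6*, *EXPA5* in BRIP2 replicate 1, and for BRIP2 the far site of *PNP-A*, which lies in AT2G18670. Intergenic sequence held 56.5 to 71.4% of the expansin summits of a library, against 64.9 to 69.2% of all summits. The shares over all summits, for introns too, were not limited to summits in a gene window, so the sets compared are unlike.

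**Figure D4:**
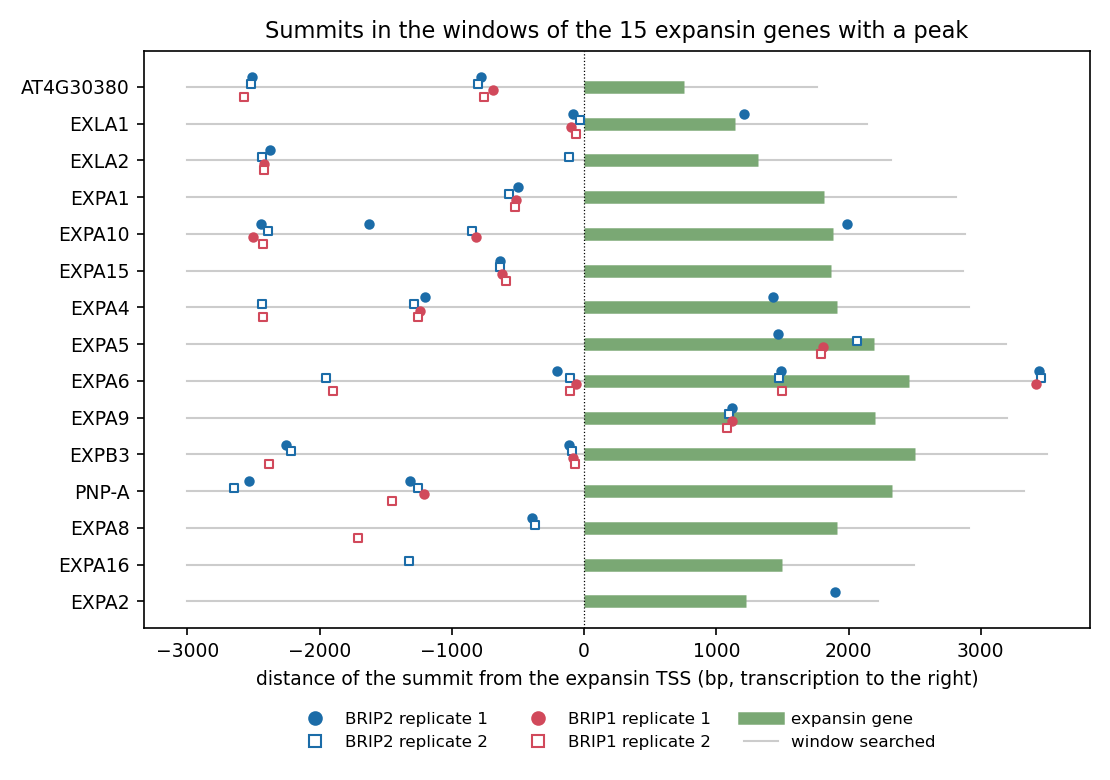
Distance of each summit from the expansin TSS in bp, transcription to the right, for the 15 expansin genes with a peak, with the gene as a green bar and the searched window as a grey line, blue for BRIP2 and red for BRIP1. Summits of the 4 libraries stack closely at EXPA1, EXPA15, EXPB3, EXLA1 and EXPA9, and scatter at EXPA5.

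No motif searched was found at all of the bound expansin sites. Within 100 bp of the median summit, 8 of the 13 sites had an E-box, against 66.1% of all 2982 sites. A brassinosteroid response element was found at 3 (*EXPA6*, *EXPA15* and *EXPB3*, against 13.9%) and a W-box at 3 (*EXPA4*, *EXPA5* and *EXLA2*, against 30.7%). A GAGA repeat was found at 2 (against 26.5%), an auxin response element at 2 (against 17.0%), a G-box at 1 (*EXPA4*, against 20.0%), a TCP motif at 1 (*EXPB3*, against 7.68%) and a telo-box at none (against 1.31%). A match is a description of the letters and not a site of a factor.

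Beside the space upstream, a feature of the annotation notes ran alongside the peaks, singled out after the values were seen. The notes of 10 expansins place them in the syncytia that nematodes induce in roots. Of these, 6 were among the 12 genes with a peak in all 4 libraries (*EXPA1*, *EXPA4*, *EXPA6*, *EXPA10*, *EXPA15* and *EXPB3*), 2 among the 3 with a peak in fewer (*EXPA8* and *EXPA16*), and 2 among the 22 with none (*EXP3* and *EXPA20*). Of the 7 other protein-coding genes whose note mentions nematodes, 3 had a peak in all 4 libraries (42.9%, against 14.9% of all genes). Because this feature of the notes was chosen on these values, it carries no test.

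Other genes of the growing wall gave a wider view. Of 30 xyloglucan endotransglucosylase/hydrolases (XTH), which cut and rejoin the hemicellulose that ties cellulose fibres, 12 had a peak in all 4 libraries (40.0%, against 14.9% of all genes). Of 10 cellulose synthases (CESA), 6 did (60.0%), and of 11 plasma membrane proton pumps of the AHA family, which acidify the wall, 2 did (18.2%). The genes named here and below have the highest mean fold of their list among those with a peak in all 4 libraries. They do not stand for their lists. *XTH9* had a fold of 7.85 and 7.43 for BRIP2, and 7.70 and 7.64 for BRIP1, far above that of any expansin. *CESA1*, of the primary wall, had 4.07 and 4.0 for BRIP2, and 2.74 and 2.94 for BRIP1. *HA11* had 3.56 and 3.35 for BRIP2, and 4.03 and 4.06 for BRIP1, so here both BRIP1 values were the higher.

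In the same lists, *XTH28*, *XTH15* and *XTH7* had mean folds of 5.11, 4.05 and 3.92 for BRIP2, and 3.46, 4.16 and 3.40 for BRIP1. *CESA4*, of the secondary wall, had 4.59 for BRIP2 and 4.16 for BRIP1, while *CESA6* had 3.53 and 2.81, and *CESA5* had 3.63 and 2.66, in that order of proteins. *HA7*, the only other pump with a peak in all 4 libraries, had 2.1 for BRIP2 and 1.94 for BRIP1. No expansin reached the mean BRIP2 fold of any of these XTH genes, which were picked for a high fold, so the families are not compared by it. *EXLA2*, at 3.71 in a site nearest to the TSS of *sks9*, was above *CESA5* and *CESA6*.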

How the data were processed

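Peak lists of 4 ChIP-seq libraries were used. Groups and replicate numbers came from sample titles. The antibody field contradicts the title in 2 samples, and 14 of 18 samples were not analysed here. Bowtie, MACS2 2.1.1, deepTools and the TAIR10 build are credited in the processing notes of the submitters. The authors called peaks library by library. Not given in the sources used here was the control behind each list. Each deposited list holds, per peak, a ratio (fold of the summit over control), the −log10 p-value and q-value of the summit, and an unused score. Fold and p were solved for pileup and control, and pileups were whole within 0.05 for 99.8 to 99.9% of peaks.

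The RefSeq annotation of TAIR10.1 was used, whose 5 nuclear chromosomes contain every peak. Coordinates count from 1. Sites are connected groups of peaks overlapping by 1 bp or more, each library being represented by its best fold. BRIP2 and BRIP1 were compared by log2 fold and an exact permutation test. Members, lists, motifs and alternatives were chosen with earlier results of these data known. Every expansin is named, and of the other wall genes up to 4 per list with the highest mean fold among those with a peak in all 4 libraries. Functions were tested on simulated lists (Python 3.11.15, numpy 2.4.6, pandas 2.3.3, scipy 1.17.1). The titles call the replicates biological.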

Additional observations from a re-analysis of the deposited data

How the results depend on the processing

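The count of expansins with a peak in all 4 libraries, 12 of 37 by the rule, fell under other settings. It was 8 with summits from 1000 bp upstream to the 3′ end (6.96% of all genes) and 9 within 2000 bp of the TSS (9.96%). It was 8 by nearest TSS (8.75%), 9 with lists of equal length (11.1%) and 10 of the 35 genes by symbol alone (14.9%). When a library was left out it was 12 to 13 (15.1 to 20.5% of all genes). Stricter peaks lowered it more. With −log10 q of 10 or more, 5 genes had a peak in all 4 libraries (8.55% of all genes) and 6 in both BRIP1 libraries (9.79%). With fold of 3 or more the counts were 0 in all 4, 0 in both BRIP1, 6 in both BRIP2 and 9 in at least 1 library (3.97, 4.34, 8.71 and 13.8% of all genes).

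Of expansin sites with all 4 libraries, 4 of 5 did not overlap with −log10 q of 10 or more (63.8% of all such sites). After centring it was 5 of 13 (48.5%). Leaving out BRIP2 replicate 1 or 2 gave 11 of 13 and 13 of 13 sites, without a test. Leaving out BRIP1 replicate 1 or 2 gave 16 of 16 and 11 of 13. The shares of all sites were then 80.3 to 84.6%. The median log2 difference was 0.32 with 50% reciprocal overlap (8 sites), 0.23 with −log10 q of 10 or more and for the genes by symbol alone, 0.04 after centring, and 0.25 to 0.29 without a library. With the replicate block, all 13 sites had the same sign in both pairs (72.7% of all sites), with a median of 0.28 and a smallest possible p of 0.5. The numbers share only a label: the correlation of same-numbered deviations was 0.01 over 2982 sites. Motif counts moved with the window, from 8 sites with an E-box to 5 at 50 bp and 9 at 150 bp. Centring and the use of genes by symbol alone were chosen after seeing the data. The cause of these shifts was not tested. With 2 replicates per protein no site could pass 0.05, and peaks under the lowest called fold are not listed.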
